A study of Homo sapiens with 8 samples.

Results

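The regions marked by trimethylated lysine 4 of histone H3 (H3K4me3) and those marked by monomethylated lysine 4 (H3K4me1) were compared in unstimulated T47D-MTVL cells. The members were every region of the authors' H3K4me3 list, 22593 regions, and every region of their H3K4me1 list, 73263 regions. Together these are 95856 of the 224950 regions in the 8 lists of the series. A region was counted as carrying both marks where it overlapped a region of the other list by at least 1 bp.

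T47D-MTVL is an established human luminal breast cancer line with a progestin-responsive reporter driven by the mouse mammary tumour virus promoter. The series mapped the progesterone receptor (PR), RNA polymerase II and both marks by chromatin immunoprecipitation and sequencing. H3K4me3, H3K4me1 and RNA polymerase II were each mapped in 1 library of unstimulated cells (0 min). PR was mapped in 1 library of unstimulated cells and in 1 library each after 5, 30, 60 and 360 min of the synthetic progestin R5020 at 10 nM. All cells had been kept in charcoal-treated serum and then without serum before the hormone was or was not added, so the unstimulated cells were also serum-starved. Both histone libraries came from this 1 line and from no further culture that the labels name. With 1 library per side, no difference described here could be set against the spread between cultures, and no test was run.

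In mammalian chromatin, H3K4me3 is laid down mainly by the SET1 and MLL1/2 complexes around the starts of active genes, where CpG-rich DNA and the passage of RNA polymerase II favour it. H3K4me1 is laid down largely by MLL3 and MLL4 and covers enhancers. At active promoters it typically flanks the H3K4me3 rather than filling the same nucleosomes, since a given lysine carries only 1 of these forms at a time. In luminal breast cells, enhancers with H3K4me1 are where the receptors for oestrogen and progesterone and their pioneer factors are commonly found.

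The lists hold positions on hg19 and no height, score or read number, so the depth of each library and the threshold of its calls are unknown. Intervals in brackets are 95% intervals over the regions of 1 library, exact for shares and for numbers per Mb. They cover counting error only. Of the H3K4me3 regions, 67.1% overlapped an RNA polymerase II region, against 16.8% of the H3K4me1 regions, and the H3K4me3 regions were the narrower, with a median of 634 bp against 2124 bp. A check of the labelled marks against gene starts was not made, because no annotation of the files' build was used here.

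Most H3K4me3 regions lay on H3K4me1, and most H3K4me1 regions lay apart from H3K4me3. Of the 22593 H3K4me3 regions, 16569 overlapped H3K4me1 (73.3%, 72.8 to 73.9%), and 11700 of the 73263 H3K4me1 regions overlapped H3K4me3 (16%, 15.7 to 16.2%). When overlapping regions of both lists were joined into 78907 loci, 11327 loci carried both marks (14.4%), 61560 carried H3K4me1 alone (78.0%) and 6020 carried H3K4me3 alone (7.63%). By length, 72.0% of the 16.7 Mb of H3K4me3 lay inside H3K4me1, but H3K4me3 filled only 5.18% of the 232 Mb of H3K4me1. Even within the H3K4me1 regions that carried both marks, H3K4me3 filled 18.7% of the bases, so that most of their pooled length was listed for H3K4me1 without H3K4me3. The H3K4me1 list covered 7.64% of the listed length of the chromosomes and the H3K4me3 list 0.549%.

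Regions with both marks were wider than regions with 1 mark, and more clearly so for H3K4me1. H3K4me1 regions with H3K4me3 had a median width of 3467.5 bp (quartiles 2177 and 5933 bp), against 1957 bp (1357 and 3119.5 bp) for those without, a ratio of 1.77. H3K4me3 regions with H3K4me1 had a median of 672 bp (396 and 1023 bp), against 533 bp (295 and 868 bp) for those without, a ratio of 1.26. The H3K4me3 regions without H3K4me1 formed a narrow and a broad peak of widths in the plot of widths by class, while those with H3K4me1 lay mostly in the broad one.

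The share with the other mark rose with width in both lists. Among H3K4me3 regions it was 57.7% in the narrowest decile (101 to 262 bp), lay between 73.3% and 78.6% from the third to the ninth decile, and reached 84.6% in the widest (1350 bp and more). Among H3K4me1 regions it rose through all 10 deciles, from 3.33% (452 to 1073 bp) to 40.0% (5931 bp and more). Of the 2643 H3K4me1 regions of 10 kb or more, 1353 held H3K4me3 (51.2%, 49.3 to 53.1%). A wider region has more bases in which an overlap can fall, so width and class are tied by the way classes were made and were not tested against each other.

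**Figure D1:**
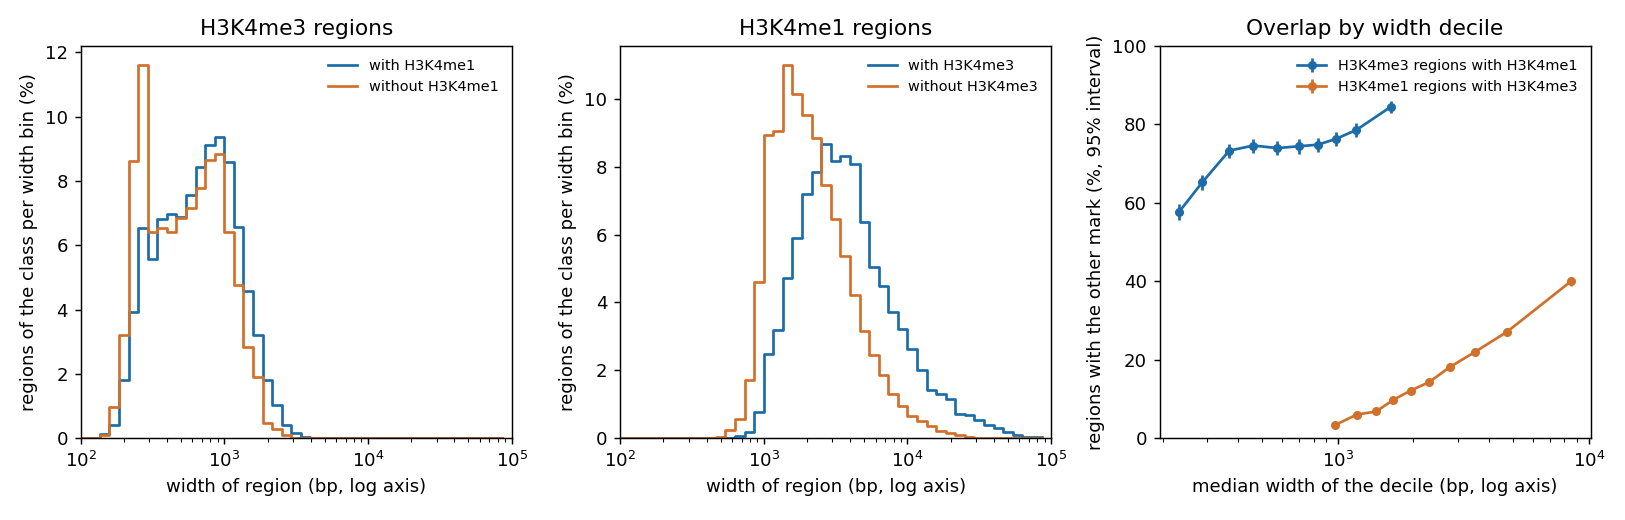
Left and middle panels: width in bp (log axis) of H3K4me3 and H3K4me1 regions, as the percentage of each class per width bin, with and without the other mark. Right panel: percentage of regions that overlap the other mark (exact 95% interval) in deciles of each list by width, at the median width of the decile (log axis); H3K4me1 rises from 3.33% to 40.0% and H3K4me3 from 57.7% to 84.6%.

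An H3K4me1 domain often held more than 1 H3K4me3 region. Of the 11700 domains with both marks, 7890 held 1 H3K4me3 region (67.4%), 2897 held 2 (24.8%), 641 held 3, 175 held 4 and 97 held 5 or more. The median width of the H3K4me1 domain rose over these classes from 2944.5 bp with 1 H3K4me3 region to 4182 bp with 2, and was 25932 bp in the 97 domains with 5 or more. Neighbouring H3K4me3 regions were frequently close: 7400 of the 22569 gaps between neighbours were of 1 kb or less. Of these short gaps, 4478 were spanned by 1 H3K4me1 region (60.5%, 59.4 to 61.6%), against 23.2% of all gaps between H3K4me3 neighbours, and 69.8% of them held RNA polymerase II, against 62.9% of all gaps. A gap can be spanned only by a longer H3K4me1 region, and 13397 of all gaps were over 10 kb, with 1.04% spanned. The higher share of short gaps spanned is therefore largely fixed by their length. With many close neighbours, counts of separate regions depend on how these are joined. Joining regions within 500 bp left 15511 H3K4me3 and 60862 H3K4me1 regions.

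The converse arrangement, H3K4me3 reaching into or lying in a break between H3K4me1 regions, was also present. Of 16713 gaps of 1 kb or less between neighbouring H3K4me1 regions, 1019 were overlapped by H3K4me3 (6.10%, 5.74 to 6.47%). This was close to the 7.37% of H3K4me1 gaps of any length. An overlap of 1 bp sufficed, so the counts include H3K4me3 regions that also overlap H3K4me1 and run over its end or bridge 2 regions. Only 243 H3K4me3 regions had no overlap and H3K4me1 within 1 kb on both sides, so at most these lay wholly in a gap of 1 kb or less. The share was 7.48% (6.79 to 8.23%) in gaps of 200 to 500 bp and 2.84% (2.53 to 3.18%) in gaps of 2 to 5 kb, although the latter offer more bases to fall in. In gaps over 10 kb it was 11.5%.

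Within its H3K4me1 region, H3K4me3 usually had H3K4me1 on both sides. Of the 16569 overlapping H3K4me3 regions, 14279 lay wholly inside 1 H3K4me1 region (86.2%, 85.6 to 86.7%), and 10177 (61.4%) had at least 500 bp of H3K4me1 on each side. A further 1912 ran over 1 end of their H3K4me1 region (11.5%), 374 bridged 2 H3K4me1 regions (2.26%) and 4 covered an H3K4me1 region whole. The regions that ran over an end or bridged were wider and more often held polymerase. Median H3K4me3 width was 625 bp inside, 949 bp over 1 end and 1089.5 bp when bridging, and the share with RNA polymerase II was 67.3%, 85.6% and 92.0%.

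The midpoint of H3K4me3 was most often near the centre of H3K4me1. When each H3K4me1 region was cut into 10 equal parts, the parts on either side of the centre held 14.1% and 13.4% of the H3K4me3 midpoints and the outermost parts 4.20% and 4.53%. The midpoints of 5.06% lay outside. The distribution was even about the centre, with 8253 midpoints toward lower and 8315 toward higher coordinates, but the lists carry no strand, so a shared direction relative to transcription could not be seen. Expressed as the distance from the nearer end, where 0 is an end and 0.5 the centre, the median was 0.307 (0.303 to 0.310). The typical arrangement was unequal: the shorter side had a median of 853 bp of H3K4me1 beyond the edge of H3K4me3 and the longer side 2371 bp. An H3K4me3 region that is wide for its H3K4me1 region cannot lie far from the centre without crossing an end, so position and relative width are tied by construction.

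The central position was weaker at both ends of the range of H3K4me1 widths. In regions of up to 2 kb, 17.7% of midpoints lay outside the H3K4me1 region and counted as distances below 0, against 0.412% above 20 kb. The median of the narrowest class is lowered by these midpoints and does not rank it against the widest. The median distance from the nearer end was 0.259 in H3K4me1 regions of up to 2 kb, 0.330 at 2 to 5 kb, 0.318 at 5 to 10 kb, 0.283 at 10 to 20 kb and 0.265 above 20 kb, where an even spread of midpoints would give 0.25 in regions much wider than H3K4me3. In the widest class the shorter side measured 7984 bp and the longer 22870 bp (medians). H3K4me3 regions without polymerase were the more central. In H3K4me1 regions of 2 to 5 kb that held 1 H3K4me3 region, 55.8% (53.1 to 58.4%) of those without polymerase had their midpoint in the middle one of 3 equal parts of the H3K4me1 region, against 46.9% (45.0 to 48.9%) of those with it. Over all overlapping H3K4me3 regions the same order was seen in each quartile of their width. The difference was widest in the top quartile, with 59.6% (54.8 to 64.3%) against 44.4% (42.8 to 45.9%). In the narrowest quartile the intervals overlapped, with 42.4% (40.3 to 44.6%) against 39.8% (37.3 to 42.3%). These quartiles do not hold H3K4me1 width fixed. In the top quartile the H3K4me1 regions had a median of 3275 bp without polymerase and 4532 bp with it. Position and relative width are therefore not separated there.

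**Figure D2:**
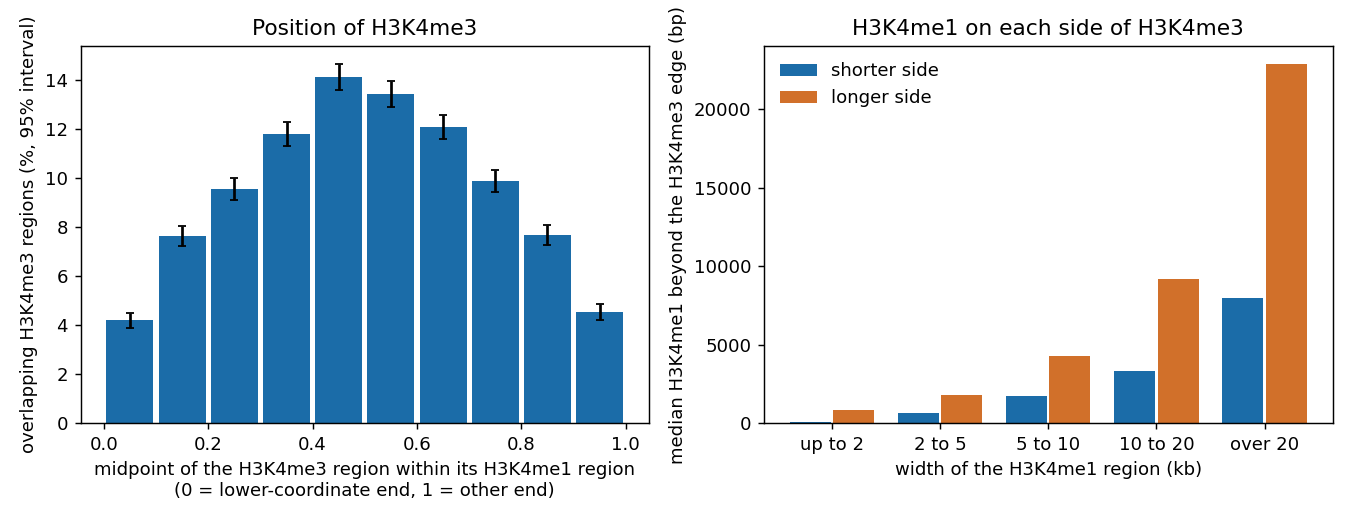
Left panel: percentage of overlapping H3K4me3 regions (exact 95% interval) whose midpoint lies in each of 10 equal parts of the H3K4me1 region, from 0 at the lower-coordinate end to 1 at the other; the 5.06% with a midpoint outside are not drawn. Right panel: median length in bp of H3K4me1 beyond the H3K4me3 edge on the shorter and the longer side, by width of the H3K4me1 region; the longer side is the larger by definition, and both grow with the domain.

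H3K4me3 regions without H3K4me1 were of several kinds by distance. Over the 6021 of them with H3K4me1 on their chromosome, the median gap to the nearest H3K4me1 region was 13.4 kb (quartiles 1.09 and 63.5 kb), and the remaining 3 were on mitochondrial DNA. H3K4me1 lay within 1 kb on both sides of 243 and on 1 side of 1222, so that 1465 (24.3%) missed the overlap by 1 kb or less. These had median widths of 506 and 606 bp and held polymerase in 72.8% (66.8 to 78.3%) and 67.1% (64.4 to 69.7%). The 1314 regions at 1 to 10 kb were narrower and held polymerase less often, with a median width of 366 bp and 42.2% (39.5 to 45.0%). The 3245 regions farther than 10 kb or with none on the chromosome had a median of 578 bp and held polymerase in 61.9% (60.2 to 63.6%).

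H3K4me1 regions without H3K4me3 mostly lay more than 10 kb from it. Their median gap to the nearest H3K4me3 region was 36.5 kb (quartiles 13.0 and 93.7 kb). Only 2.80% had H3K4me3 within 1 kb and 20.3% within 10 kb, while 76.5% had it within 100 kb.

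Over the whole list, RNA polymerase II was listed at most H3K4me3 regions of both classes, although not in every part of the genome: in the 5 Mb bins of highest MNase read density described below, 10.3% of H3K4me3 regions without H3K4me1 held it. Of H3K4me3 regions with H3K4me1, 69.9% (69.2 to 70.6%) held polymerase, and of those without, 59.1% (57.9 to 60.4%), around the 67.1% of all H3K4me3 regions. The difference lay in the narrowest quartile of H3K4me3 (up to 369 bp), at 41.6% (40.0 to 43.2%) against 23.4% (21.6 to 25.3%). In wider quartiles the shares were 61.3% against 62.9%, 80.2% against 82.6% and 90.8% against 90.7%. Polymerase midpoints numbered 724 per Mb of the H3K4me3 that lay in H3K4me1 (709 to 740) and 718 per Mb of H3K4me3 outside H3K4me1 (694 to 743), intervals that overlap.

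Among H3K4me1 regions the presence of H3K4me3 went with a large difference in polymerase. RNA polymerase II was listed in 72.6% (71.7 to 73.4%) of those with H3K4me3 and in 6.26% (6.07 to 6.45%) of those without, beside 16.8% of all. In quartiles of H3K4me1 width the shares were 60.0% against 2.13%, 59.8% against 3.18%, 66.2% against 5.90% and 82.2% against 16.5%, so the difference held at each width. The share rose with the number of H3K4me3 regions in the domain, from 64.9% with 1 to 87.2% with 2 and 92.6% with 3 or more. These domains were also wider, with medians of 2944.5, 4182 and 8941 bp. A single polymerase region anywhere in the domain sufficed, so more H3K4me3 regions and more length give more places for one. At least part of this rise is therefore fixed by the counting. Outside the H3K4me3 itself, the rest of the both-mark domains had 138 polymerase midpoints per Mb (135 to 141), 34.3 per Mb (33.4 to 35.2) lay in H3K4me1 regions without H3K4me3, and only 1.86% of the H3K4me1 regions with no H3K4me3 within 100 kb held polymerase.

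**Figure D3:**
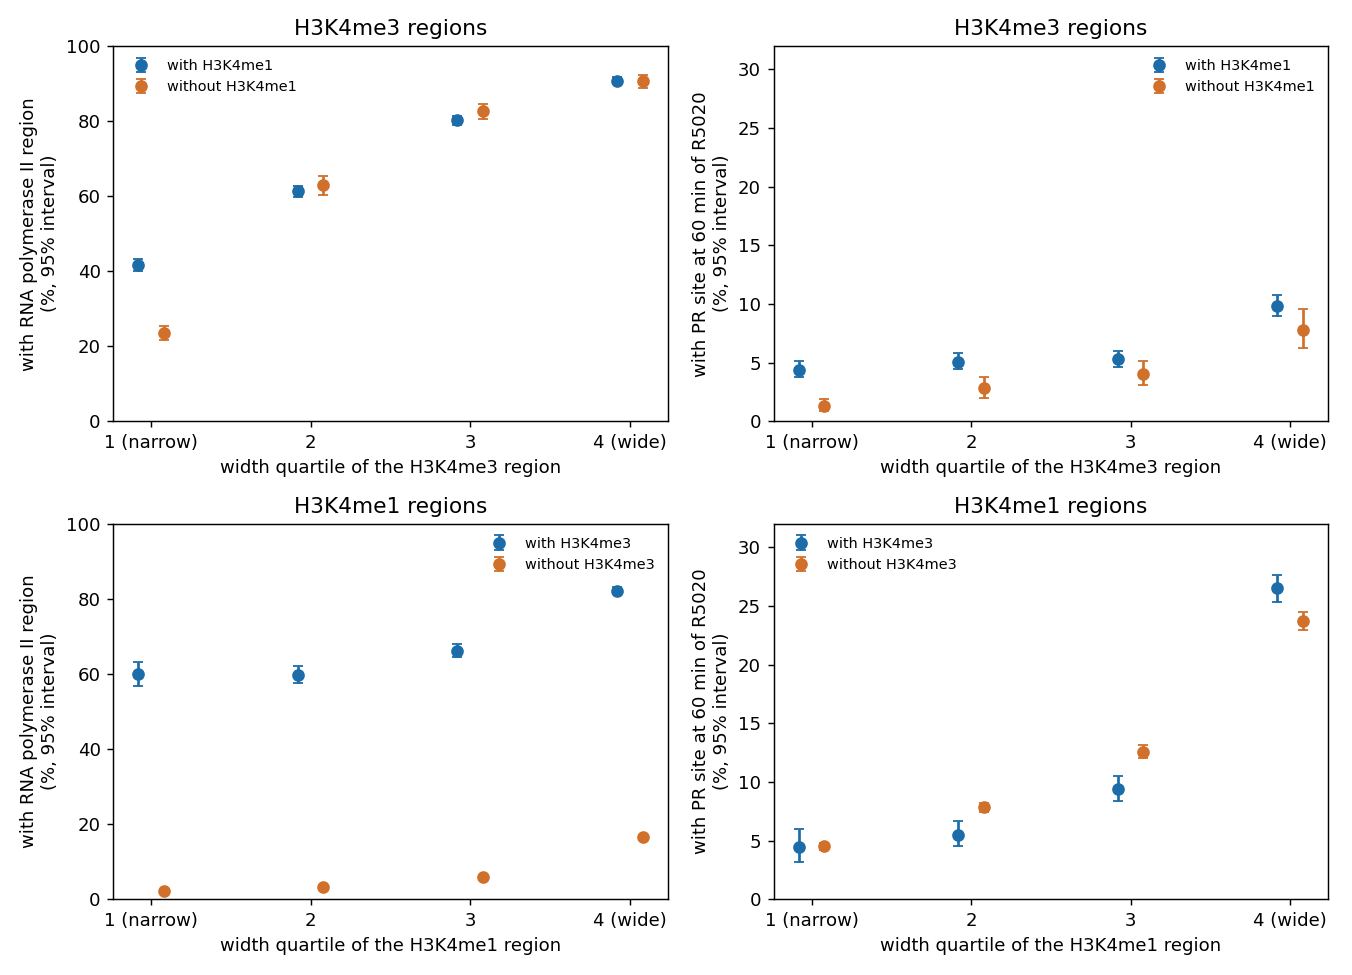
Percentage of H3K4me3 regions (top) and H3K4me1 regions (bottom) that overlap an RNA polymerase II region (left) or a PR site at 60 min of R5020 (right), with exact 95% intervals, in quartiles of region width and by presence of the other mark. At H3K4me3 the polymerase shares differ by class in the narrowest quartile, 41.6% against 23.4%, and at H3K4me1 in each quartile. PR shares rise with width in each class. They also differ by class, most in the narrowest quartile at H3K4me3, and with a change of order between the third and the widest quartile at H3K4me1.

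PR, the ligand-activated receptor for progesterone, had another distribution over the classes than polymerase. After 60 min of R5020, PR sites overlapped 16.8% (16.1 to 17.5%) of H3K4me1 regions with H3K4me3 and 11.3% (11.04 to 11.54%) of those without, beside 12.2% of all. This order did not hold at every width. In quartiles of H3K4me1 width the shares were 4.45% against 4.51%, 5.51% against 7.82%, 9.39% against 12.6% and 26.5% against 23.7%. The regions without H3K4me3 held PR more often in quartiles 2 and 3, those with it in the widest quartile, which holds 5767 of the 11700 domains with both marks, and the narrowest quartile was level within its intervals. H3K4me1 regions with no H3K4me3 within 100 kb, which had little polymerase, still held PR at 60 min in 9.43% (8.95 to 9.91%). The other times with hormone gave the same order over all widths: 15.1% against 11.5% at 5 min, 16.1% against 11.95% at 30 min and 15.4% against 10.5% at 360 min, where all H3K4me1 regions gave 12.1%, 12.6% and 11.3%. At any of the 4 times with hormone the shares were 22.9% with and 17.0% without H3K4me3, beside 17.9% of all.

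Per length, the H3K4me3 part of the both-mark domains had 64.4 PR midpoints per Mb at 60 min (59.9 to 69.1), the rest of those domains 43.6 (41.8 to 45.4) and H3K4me1 regions without H3K4me3 50.2 (49.2 to 51.3). At 5 min the 3 values were 52.7, 41.0 and 51.3 per Mb, at 30 min 56.6, 42.7 and 53.7, and at 360 min 52.4, 41.0 and 46.1. At each time with hormone the H3K4me1 around H3K4me3 thus had fewer PR sites per Mb than H3K4me1 elsewhere. The 844 PR sites of unstimulated cells were arranged differently, with 6.42 per Mb (5.07 to 8.02) in the H3K4me3 part, 2.56 (2.15 to 3.03) in the rest of those domains and 1.12 (0.968 to 1.30) in H3K4me1 without H3K4me3. The rest of the both-mark domains stood to H3K4me1 without H3K4me3 as 2.28 to 1 (1.83 to 2.85) before hormone and as 0.868 to 1 (0.829 to 0.909) at 60 min. Only 77, 134 and 188 PR sites lie behind the values before hormone. Many sites before hormone were on chromosome 3: without it, 621 of the 844 remained, against 22367 of 24436 at 60 min. The ratio of 2.28 was then 2.00 (1.50 to 2.67). The number per Mb in the H3K4me3 part was not computed without this chromosome.

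Counted per region, H3K4me3 regions held PR at 60 min less often than H3K4me1 regions did, but they are narrower. Per Mb, the H3K4me3 part of both-mark domains had the higher number (64.4 against 43.6 and 50.2, above). H3K4me3 bases outside H3K4me1 did not, with 43.4 PR midpoints per Mb at 60 min (37.7 to 49.9). At 5, 30 and 360 min these bases had 33.0, 41.9 and 37.2 per Mb. The widest quartile of H3K4me3 regions (median 1259 bp) held PR in 9.48%, against 4.51% of the narrowest quartile of H3K4me1 regions (median 1128 bp). At 60 min PR overlapped 6.31% (5.95 to 6.69%) of H3K4me3 regions with H3K4me1 and 3.49% (3.04 to 3.98%) of those without, beside 5.56% of all. The classes differed most in the narrowest quartile, 4.40% against 1.32%, and also in the second, 5.10% (4.46 to 5.82%) against 2.82% (2.03 to 3.80%). Intervals overlapped in the third quartile, 5.29% (4.64 to 6.01%) against 4.03% (3.07 to 5.18%), and in the widest, 9.87% (9.02 to 10.8%) against 7.81% (6.27 to 9.57%). The ratio with to without H3K4me1 was 1.31 (0.990 to 1.74) in the third and 1.26 (1.01 to 1.58) in the widest. At 5, 30 and 360 min the shares were 5.25% against 2.57%, 5.53% against 3.22% and 4.95% against 2.79%, beside 4.54%, 4.92% and 4.37% of all H3K4me3 regions, and at any time with hormone 8.68% against 4.90%, beside 7.67%. The lists at different times share this 1 pair of histone libraries. In unstimulated cells, PR was listed at 0.525% of H3K4me3 regions with H3K4me1 and at 0.133% of those without, beside 0.42% of all, and at 1.45% of H3K4me1 regions with H3K4me3 and 0.314% of those without, beside 0.495% of all.

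The authors' deposited table of micrococcal nuclease (MNase) reads, which describes the DNA left at each 60 min PR site after digestion between nucleosomes, differed by class as well. In this authors' deposited table, the ratio of reads in unstimulated to R5020-treated cells had a median of 2.04 at the 772 PR sites in the H3K4me3 part of both-mark domains, 1.62 at 2281 sites in the rest of those domains and 1.45 at 8413 sites in H3K4me1 without H3K4me3. It was 1.89 at 203 sites on H3K4me3 outside H3K4me1 and 1.14 at 12767 sites outside both marks. Within both-mark domains but off the H3K4me3, the median ratio in the authors' deposited table was 1.765 up to 500 bp from H3K4me3, 1.48 at 500 to 1000 bp, 1.53 at 1 to 2 kb, 1.56 at 2 to 5 kb and 1.70 beyond 5 kb, so it did not fall steadily with distance. In the unstimulated cells of the same authors' deposited table, the median normalized reads per 100 bp were 42.1 in the H3K4me3 part and 37.7 in the rest of both-mark domains, 35.5 in H3K4me1 without H3K4me3, 27.2 on H3K4me3 outside H3K4me1 and 25.1 outside both marks.

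Both marks lay unevenly over the chromosomes. Per Mb, H3K4me1 was densest on chromosome 17 (59.3 regions), 3 (42.4) and 12 (38.9) and sparsest on X (3.83), 4 (6.75) and 18 (7.15). H3K4me3 was densest on chromosomes 19 (22.7), 17 (17.6) and 16 (11.6) and sparsest on X (3.34), 13 (3.44) and 18 (3.60). The highest density was 15.5 times the lowest for H3K4me1 and 6.80 times for H3K4me3. Without chromosome X these ratios were 8.78 and 6.60, so that in regions per Mb most of the difference between the marks came with 1 chromosome. This did not hold for the covered share of the listed length. Without chromosome X, H3K4me1 covered from 1.42% of chromosome 18 to 27.0% of 17, and H3K4me3 from 0.263% of 13 to 1.60% of 19. There were 1.15 H3K4me1 regions per H3K4me3 region on chromosome X, 1.59 on 19 and 4.67 on 8, so the balance of the marks was not the same from chromosome to chromosome.

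The share of H3K4me3 regions with H3K4me1 varied with these densities. It was 28.0% (24.2 to 32.1%) on chromosome X, 43.1% on 4, 48.7% on 2, 49.1% on 18 and 55.1% on 13, and reached 86.5% on 15, 88.1% on 16 and 89.2% (87.5 to 90.8%) on 17. The 5 chromosomes with fewer than 10 H3K4me1 regions per Mb (2, 4, 13, 18 and X) held 14.2% of all H3K4me3 regions and 29.3% of those without H3K4me1. Since they were picked for few H3K4me1 regions, a lower share with H3K4me1 there is largely fixed by the choice and is given as a description. On these 5, H3K4me3 had H3K4me1 in 44.9% (43.2 to 46.6%), against 78.1% (77.5 to 78.6%) on the other 18. Polymerase was about as frequent at H3K4me3 in both sets, at 66.2% (64.5 to 67.8%) and 67.2% (66.5 to 67.9%), and among H3K4me3 regions with polymerase 40.7% and 82.3% had H3K4me1.

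MNase reads, which come from other libraries, moved with this, although the sites at which they were taken were chosen with both histone lists. At 60 min PR sites outside both marks, the median MNase reads of unstimulated cells per 100 bp, from the authors' deposited table, were 19.8 on the 5 chromosomes and 27.9 on the others. Across 23 chromosomes this read density had a Spearman rho of 0.84 with the number of H3K4me1 regions per H3K4me3 region (Pearson r 0.87), of 0.78 with the share of H3K4me3 with H3K4me1 (r 0.81) and of 0.39 with H3K4me3 regions per Mb (r 0.24). These are descriptions, since the values of all chromosomes come from the same libraries. The part of the MNase read density in the differences between chromosomes was not tested.

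**Figure D4:**
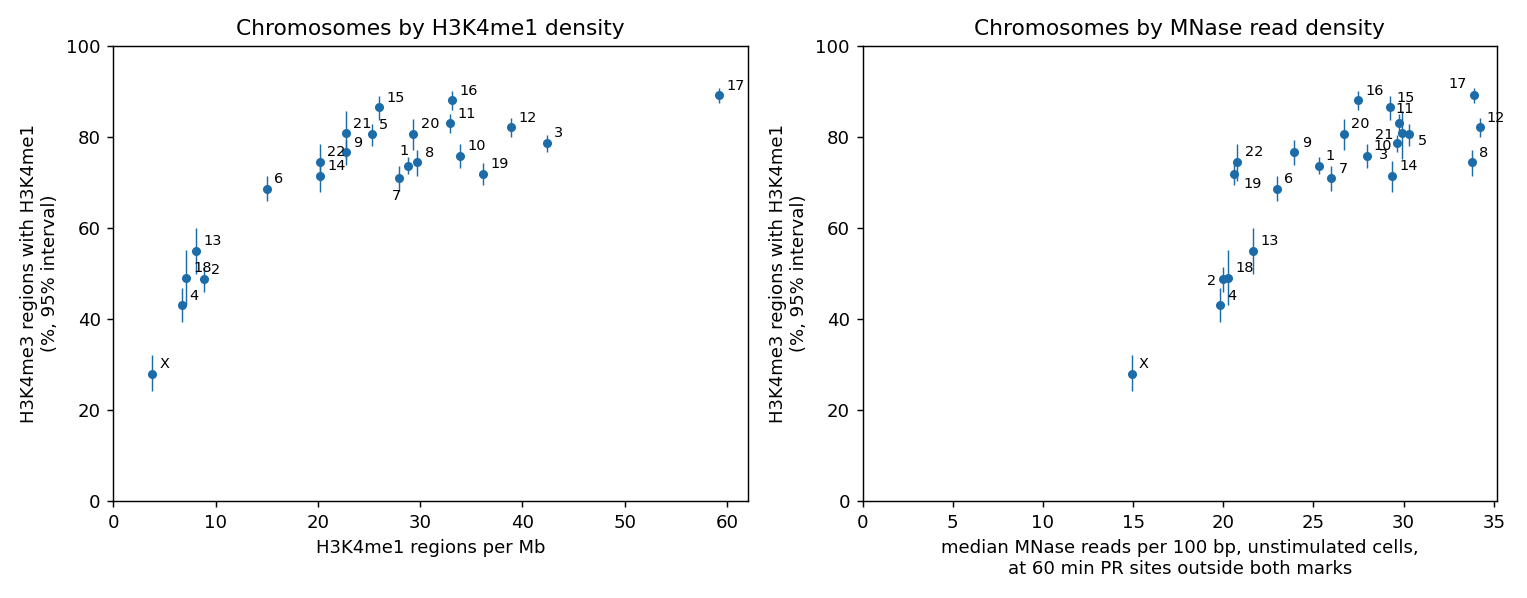
Percentage of H3K4me3 regions with H3K4me1 (exact 95% interval) on each of 23 chromosomes, against H3K4me1 regions per Mb (left) and against the median MNase reads per 100 bp of unstimulated cells at 60 min PR sites outside both marks, from the authors' deposited table (right). Chromosomes X, 4, 2, 18 and 13 lie below 60% at low values of both measures.

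The same relation was visible at a finer scale. The genome was cut into 5 Mb bins, and 508 bins had at least 10 PR sites outside both marks and so a value of MNase reads per 100 bp, again from the authors' deposited table. From the 12 bins with up to 15 reads to the 51 bins with over 40, H3K4me1 rose from 1.25 to 59.0 regions per Mb and H3K4me3 from 5.08 to 12.7. RNA polymerase II rose from 4.48 to 20.6 regions per Mb. The share of H3K4me3 regions with H3K4me1 was 2.95% (1.36 to 5.53%) in the lowest class, 46.7% at 15 to 20 reads, 60.4% at 20 to 25, 79.6% at 25 to 30 and 86.7% (85.5 to 87.9%) above 40. Restricted to H3K4me3 regions with polymerase, the share ran from 2.89% to 97.7%, so nearly all of them lay on H3K4me1 in the bins of highest read density and few did in the lowest. Over the 477 bins with at least 10 H3K4me3 regions as well, rho with MNase reads was 0.79 for the number of H3K4me1 regions, 0.74 for the share with H3K4me1, 0.37 for the number of H3K4me3 regions and 0.35 for polymerase regions. Neighbouring bins resemble each other and share libraries.

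The makeup of H3K4me3 regions without H3K4me1 changed over the same bins. At 15 to 25 reads they were as wide as those with H3K4me1, with medians of 685.5 and 679 bp in the 2 classes of bins there against 655 and 678 bp, and held polymerase more often, in 75.4% of each class against 60.2% and 70.5%. Above 40 reads they had a median of 276 bp against 626 bp and held polymerase in 10.3% (7.55 to 13.5%) against 67.0% (65.2 to 68.8%). The higher polymerase share of H3K4me3 with H3K4me1 in the whole list, 69.9% against 59.1%, is therefore taken over bins that differ in the direction of this difference. The part of the read density here was likewise not tested.

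**Figure D5:**
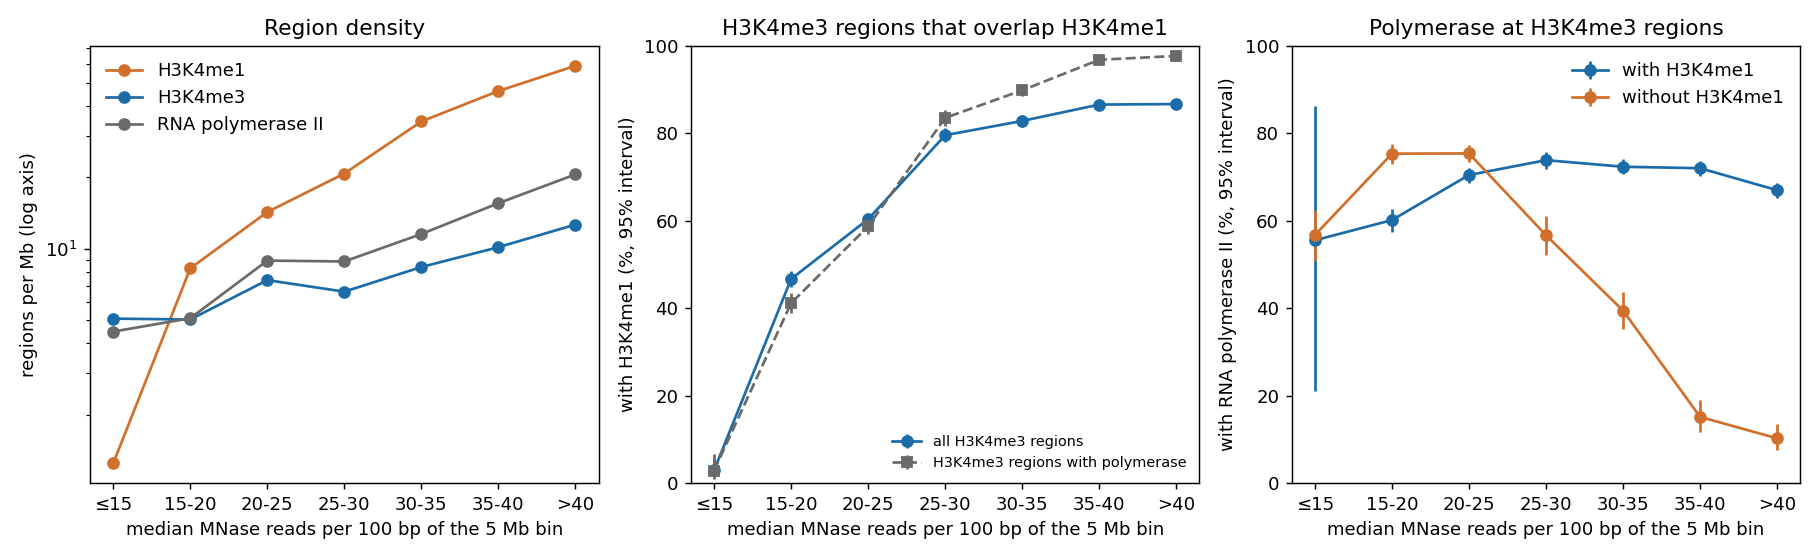
Bins of 5 Mb grouped by median MNase reads per 100 bp of unstimulated cells at 60 min PR sites outside both marks, from the authors' deposited table. Panels show regions per Mb of H3K4me1, H3K4me3 and RNA polymerase II (log axis), the percentage of H3K4me3 regions with H3K4me1 for all and for those with polymerase, and the percentage with polymerase among H3K4me3 regions with and without H3K4me1 (exact 95% intervals); the last 2 curves cross, from 60.2% against 75.4% at 15 to 20 reads to 67.0% against 10.3% above 40.

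The end of the long arm of chromosome 3 stood apart. From 165 Mb to the end, a boundary set after the values were seen, 33.0 Mb held 865 H3K4me3 regions (26.2 per Mb) and 4553 H3K4me1 regions (138 per Mb), against 6.25 and 23.2 per Mb on the rest of the chromosome and 7.29 and 22.9 on the other chromosomes. Its H3K4me3 regions were narrow, with a median of 349 bp against 665 and 648 bp, and 30.1% (27.0 to 33.2%) held polymerase against 65.1% and 68.7%. H3K4me1 was at 85.0% of them. Median MNase reads per 100 bp, from the authors' deposited table, were 51.3 there against 28.2 and 24.9. These medians rest on 75, 796 and 11550 PR sites outside both marks. Without the whole of chromosome 3, the shares with the other mark were 72.8% for H3K4me3 and 16.4% for H3K4me1.

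The widest H3K4me3 region with H3K4me1 was at chr10:8096657-8104422. It measured 7765 bp, overlapped 5 polymerase regions, and ran past the lower-coordinate end of its H3K4me1 region, which spans 8099211 to 8108013. The next were 5016 bp at chr7:5458424-5463440, 4257 bp at chr17:39680337-39684594, 3976 bp at chr14:69255798-69259774 and 3931 bp at chr11:62310415-62314346. Their H3K4me1 regions differed widely, from 2109 bp for the one on chromosome 14, which had its midpoint beyond the end of the H3K4me1 region, to 69209 bp for the one on chromosome 17, which lay wholly inside. All 5 overlapped RNA polymerase II, as did 90.8% of the widest quartile of H3K4me3 regions with H3K4me1.

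The widest H3K4me3 region without H3K4me1, 4242 bp, was on mitochondrial DNA, which is not packaged in histones. The others measured 3076 bp at chr22:29194062-29197138, 2783 bp at chr4:111117430-111120213, 2714 bp at chr4:103746492-103749206 and 2690 bp at chr2:151341287-151343977. Their nearest H3K4me1 regions were 2962, 465116, 929 and 538394 bp away. Each of the 4 overlapped 1 to 3 polymerase regions and no PR site at any time. In the widest quartile of H3K4me3 regions without H3K4me1, 90.7% held polymerase and 7.81% held PR at 60 min.

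Of the 5 widest H3K4me1 regions without H3K4me3, 4 had no other readout. In the widest quartile of this class, 16.5% of regions held polymerase and 23.7% held PR at 60 min. The 4 regions were 65967 bp at chr4:49092831-49158798, 58045 bp at chr21:10771505-10829550, 51421 bp at chr16:46385652-46437073 and 49875 bp at chrX:61681872-61731747. They overlapped neither polymerase nor PR at any time. As background, these 4 places border centromeric or pericentromeric gaps of the hg19 assembly, where repeats are frequent. The fifth, 57242 bp at chr16:85307829-85365071, overlapped 4 polymerase regions and 6, 10, 10 and 10 PR sites at 5, 30, 60 and 360 min, with none before hormone.

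That region ended just before the H3K4me1 region with the most H3K4me3, 432246 bp at chr16:85365139-85797385. It held 61 H3K4me3 regions, which had a median width of 396 bp and filled 8.78% of it, together with 169 polymerase regions and 11, 51, 55, 52 and 49 PR sites at 0, 5, 30, 60 and 360 min. The next held 15 H3K4me3 regions at chr3:184006429-184117466, 11 at chr12:54358046-54402708, 11 at chr17:27031853-27062978 and 9 at chr3:183941595-183984078. Their H3K4me3 regions were spaced more tightly than in the first, with a median gap of 1740, 428.5, 225 and 97.5 bp against 3173.5 bp. These 4 held 14 to 50 polymerase regions but at most 4 PR sites at any time. Both regions on chromosome 3 lie in the stretch beyond 165 Mb.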

How the data were processed

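Chromatin immunoprecipitation and sequencing was done in 8 samples, 1 per group, and 1 H3K4me3 and 1 H3K4me1 library were compared. The authors deposited each as chromosome, start and end on hg19 (build per the submitters' processing notes). For aligner, peak caller, threshold, input and depth no value was given in the sources used here. The authors' deposited MNase table gives normalized whole-number reads per 60 min PR site, handled as a score, and the authors' ratio of unstimulated to R5020 reads, with no account of the normalization.

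Width was taken as end minus start. Overlap meant 1 bp or more, and gaps were measured edge to edge. Chromosome length was the last base listed in any file. Shares carry exact Clopper-Pearson 95% intervals, rates per Mb exact Poisson intervals, medians order-statistic intervals and ratios log-normal ones, for counting error only. Correlations are descriptions with no p. The overlap, gap and position code was tested on simulated data. Tables were handled with pandas 2.3.3 and NumPy 2.4.6 in Python 3.11.15, intervals computed with SciPy 1.17.1 and plots drawn with Matplotlib 3.10.9. Bins were counted as 5 Mb each.

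Regions were named by rule: the 5 widest H3K4me3 regions with and the 5 without H3K4me1, the 5 widest H3K4me1 regions without H3K4me3, the 5 H3K4me1 regions with the most H3K4me3, and the 3 densest and 3 sparsest chromosomes per mark. The members and comparisons were chosen with earlier results of these data known. Alternatives were other overlap rules, wider regions only, regions within 500 bp merged, chromosomes left out, width quartiles and counts per Mb. Genes, gene starts and sequences were not analysed here, since no hg19 annotation or genome was used.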

Additional observations from a re-analysis of the deposited data

How the results depend on the processing

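Each group held 1 library, so leaving out a library was not possible, and the depth and calling threshold of each list are unknown. No paired analysis was possible because each group has 1 sample and no result comes from a test. Shares of gene starts and published hg19 chromosome lengths were not run. The cause of the changes below was not tested unless the setting itself removes regions or changes the overlap rule. The share of H3K4me3 with H3K4me1 (73.3%) was 69.9% with at least 50% of the region covered, 69.6% by midpoint, 79.8% within 1 kb, 60.2% with the wider 50% of H3K4me1, 77.7% with the wider 50% of H3K4me3, 74.8% after merging within 500 bp, 74.4% without chromosomes X, Y and M, 72.3% without chromosome 17 and 85.3% in 5 Mb bins with over 30 MNase reads per 100 bp. The share of H3K4me1 with H3K4me3 (16.0%) was 15.3%, 15.1%, 18.3%, 24.3%, 10.8% and 17.2% under the first 6 of these, 16.4% without chromosome 3 and 12.8% in those bins. By midpoint and after merging, the width ratio was 1.17 and 1.56 for H3K4me3 and 1.85 and 2.08 for H3K4me1. The median position (0.307) was 0.303 with 1 H3K4me3 per domain and 0.334 both wholly inside and after merging, and the gap was 14.8 kb between midpoints. By covered length the highest chromosome was 30.6 times the lowest for H3K4me1 and 7.59 times for H3K4me3. In regions per Mb, the ratio for H3K4me1 was 15.5 with chromosome X and 8.78 without it.

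The polymerase ratio at H3K4me3 with to without H3K4me1 (1.18) was 1.39 by midpoint and 1.78, 0.974, 0.971 and 1.001 over width quartiles, turning in quartiles 2 and 3. The PR ratio at 60 min (1.81) was 1.42 per Mb and 3.34, 1.81, 1.31 and 1.26 over width quartiles. The polymerase ratio at H3K4me1 with to without H3K4me3 (11.6) was 14.4 by midpoint and 28.2, 18.8 and 4.99 in quartiles 1, 2 and 4. The PR ratio there (1.49) turned to 0.945 per Mb and to 0.986, 0.704 and 0.747 in the first 3 quartiles, with 1.12 in quartile 4. Of 61 alternatives, 15 left the value within the interval of the main setting, 40 moved it outside, up or down, and 6 turned a ratio to the other side of 1. For shares, position and gap no turn was defined. The bins over 30 reads, and the ratios without chromosome X, chromosome 3, chromosome 9 or the domain with the most H3K4me3, were chosen after seeing the data; PR ratios per Mb then stayed at 2.00 to 2.40 before hormone and 0.859 to 0.861 at 60 min.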
